A study of Mus musculus with 6 samples.

Results

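The platelet-derived growth factor (PDGF) family in these data consists of 6 genes, the ligands *Pdgfa*, *Pdgfb*, *Pdgfc* and *Pdgfd* and the receptors *Pdgfra* and *Pdgfrb*. They were taken by name from the 50600 genes of the deposited counts. Each matched 1 gene, and each was among the 13475 protein-coding genes abundant enough to be tested. RNA came from the freshly sorted cardiac side population (SP), heart cells recognised by their low retention of a Hoechst dye. The wt group had 3 libraries from C57BL/6NRj mice, and the other had 3 libraries labelled flt3L-/-, from mice of the strain C57BL/6Flt3Ltml/mx, in which the gene of the ligand of the receptor Flt3 is targeted. The mice were 8 to 12 weeks old. Each library pooled the cells of 4 hearts after cardiomyocytes and erythrocytes had been depleted, and 1 library of each group was sorted on each of 3 dates. These pairs are numbered 1, 2 and 3 by date, with pairs 1 and 2 from 2016 and pair 3 from 2017.

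PDGFs are secreted dimers that activate receptor tyrosine kinases. The receptor alpha chain, encoded by *Pdgfra*, binds the A, B and C chains, and the beta chain, encoded by *Pdgfrb*, binds the B and D chains. PDGF-C and PDGF-D leave the cell in a latent form from which proteases must remove a CUB domain, whereas PDGF-A and PDGF-B are processed inside the cell by proprotein convertases. In the heart, *Pdgfra* is best known from fibroblasts and their progenitors and *Pdgfrb* from pericytes and smooth muscle cells, and endothelial PDGF-B draws pericytes to growing vessels.

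Promoter sequence is shown for the ligand with the highest level and the ligand with the lowest level in these libraries. The RefSeq windows of GRCm38.p6, which hold 250 bases before and 50 bases after a start, contained *Pdgfa*, *Pdgfc*, *Pdgfd* and *Pdgfra*, and *Pdgfb* and *Pdgfrb* were not matched. Bases that lie in an annotated exon were left out. Capitals mark a TATA box in *Pdgfd* at chr9:6168326-6168331, 31 bases before the first RefSeq start, and a CArG box in *Pdgfc* at chr3:81036399-81036408, 7 bases before its start. Both stretches read 5′ to 3′ on the plus strand.
Pdgfd, chr9:6168236-6168362: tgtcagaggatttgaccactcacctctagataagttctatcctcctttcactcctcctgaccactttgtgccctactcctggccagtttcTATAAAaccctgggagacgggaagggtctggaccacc
Pdgfc, chr3:81036166-81036415: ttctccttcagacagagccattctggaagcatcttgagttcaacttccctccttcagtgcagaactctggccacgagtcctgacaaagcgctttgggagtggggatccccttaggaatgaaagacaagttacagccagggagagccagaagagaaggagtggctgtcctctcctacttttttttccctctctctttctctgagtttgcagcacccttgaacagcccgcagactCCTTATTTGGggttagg

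On both strands, the letters TATAAA occurred in 13.6% and the CArG box, the known recognition site of serum response factor, in 1.63% of the 32851 RefSeq windows of 300 bases. The GC box GGGCGG, present in 35.7% of all windows, was found among the 4 matched genes in *Pdgfa*, whose windows at its 2 starts held 1 and 2 copies. These windows of *Pdgfa* also had 24 and 37 CpG dinucleotides, against 8 for *Pdgfc*, 8 for *Pdgfd*, 5 for *Pdgfra* and a median of 7 over all windows. A match describes the letters of the window and not the binding of a factor.

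Total counts per library were between 24370913 and 31145519, and 3 counts equalled 0.109 to 0.127 counts per 1000000 (CPM) after scaling with TMM factors. This limit covers counting error only, since the reads carry no molecular identifiers. Reads of *Flt3l*, the targeted gene, were not fewer in the libraries labelled flt3L-/- (12.4 to 14.4 CPM) than in wt (8.67 to 12.1 CPM), and gene counts do not show which exons they came from. *Flt3l* also shares 22.1% of its exon bases with the gene Gm45713, and the unstranded libraries cannot separate the reads of the 2 genes there. Every direction given here therefore rests on the labels. The methods of the study name both the complete SP and its Sca1+/CD31- fraction as sorted populations, and *Pecam1*, which encodes CD31, had 873 to 1524.1 CPM in the 6 libraries. The SP transporter gene *Abcg2* had 147 to 274 CPM and *Ly6a*, which encodes Sca1, had 523 to 1791 CPM. The pair 3 library labelled flt3L-/- had the highest share of mitochondrial counts (1.75%, against 0.479% to 1.10% in the other 5) and the lowest summed level of 8 fibroblast markers. The mitochondrial share was higher under the flt3L-/- label in 3 of 3 pairs (0.479% and 0.556%, 0.872% and 1.06%, 1.10% and 1.75%), as was the number of genes detected (25739 to 27897 for wt and 26232 to 29594), and the part of either in the results was not tested. In such bulk samples, fewer cells of a type and less RNA per cell cannot be told apart.

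**Figure D1:**
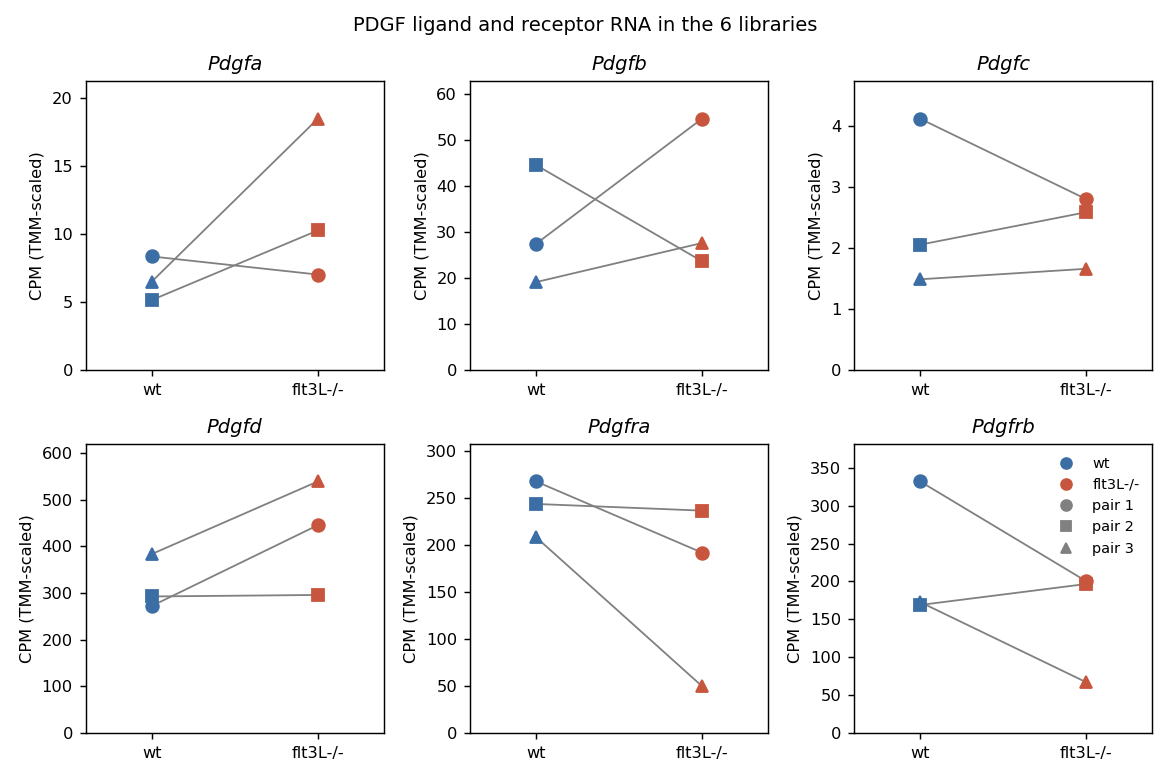
TMM-scaled CPM (linear axes from 0) of the 6 PDGF genes in each library, wt on the left and the libraries labelled flt3L-/- on the right of each panel, with a line joining the libraries of 1 sorting date. The lines of *Pdgfd* rise or stay level (272 to 445, 293 to 296 and 384 to 539 CPM), *Pdgfra* ends at 49.8 CPM in pair 3, and in the other 4 panels the lines run in both directions.

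The SP libraries were dominated by *Pdgfd* among the ligands and held RNA of both receptors. Levels were compared between genes as CPM per kilobase of annotated exon. On this scale the mean over the 6 libraries was 117.8 for *Pdgfd*, 34.6 for *Pdgfrb*, 19.9 for *Pdgfra*, 7.90 for *Pdgfb*, 2.98 for *Pdgfa* and 0.482 for *Pdgfc*. Of the 5 steps between neighbours in this order, 2 were wider than the spread over libraries. The lowest *Pdgfd* level per kilobase (86.3) lay above the highest *Pdgfrb* level (60.6), and the lowest *Pdgfa* level (1.66) lay above the highest *Pdgfc* level (0.810). The other neighbours overlapped in their ranges over the 6 libraries and did not differ beyond their spread. Within a library *Pdgfrb* exceeded *Pdgfra* in 6 of 6 by 1.27-fold to 2.46-fold, but this order depends on the exon lengths (5.478 and 10.024 kb). In CPM without division by length, the mean was 199.4 for *Pdgfra* and 189.6 for *Pdgfrb*. With the longest annotated transcripts as lengths (6.834 and 5.423 kb), the wt library of pair 2 had the opposite order. Per kilobase of exon, *Pdgfb* exceeded *Pdgfa* in 6 of 6 libraries, and *Pdgfra* exceeded *Pdgfb* in 5 of 6. The exception was the pair 3 library labelled flt3L-/-, where *Pdgfra* (4.96 CPM per kilobase) fell to the fifth place, below *Pdgfb* (6.64) and *Pdgfa* (5.93). *Pdgfd* made up 87.9% to 94.6% of the summed ligand level per kilobase, *Pdgfb* 3.58% to 10.1%, *Pdgfa* 1.43% to 3.22% and *Pdgfc* 0.178% to 0.840%.

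**Figure D2:**
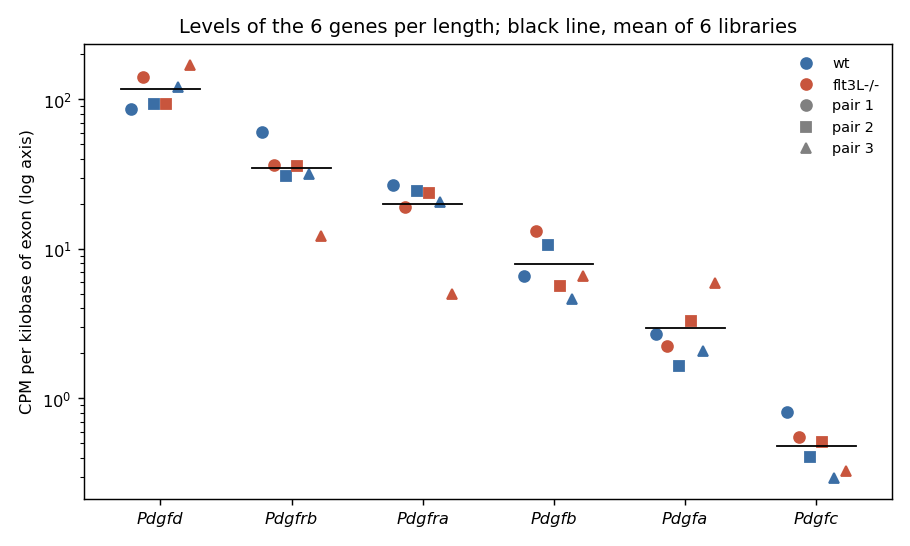
CPM per kilobase of exon (log axis) of the 6 genes in the 6 libraries, colours for the groups, symbols for the pairs and a black line for the mean. The genes are ordered by their means, from 117.8 for *Pdgfd* to 0.482 for *Pdgfc*, and the triangles of the pair 3 library labelled flt3L-/- lie lowest for *Pdgfrb* (12.2) and *Pdgfra* (4.96).

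*Pdgfd* (ENSMUSG00000032006, GRCm38 chr9:6168584-6378850, plus strand) encodes a ligand of the beta receptor. In pairs 1, 2 and 3 the wt libraries held 272, 293 and 384 CPM of it, and their partners labelled flt3L-/- held 445, 296 and 539 CPM. The second library of each pair was the higher one in 3 of 3 pairs, by 0.71, 0.016 and 0.49 on the log2 scale, but the pair 2 library labelled flt3L-/- lay below the wt library of pair 3, so the groups overlapped. Mean levels were 316 ± 59.3 CPM for wt and 427 ± 123 CPM under the flt3L-/- label (SD, n = 3 each). The log2 fold change was 0.41 (standard error 0.18, 95% interval -0.072 to 0.88) and did not pass the test (unadjusted p = 0.0803, adjusted p = 0.973, edgeR's quasi-likelihood test with Benjamini-Hochberg adjustment over all genes). *Pdgfd* was also the most even of the 6 genes, with its highest library 1.98-fold above its lowest.

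*Pdgfb* (ENSMUSG00000000489, chr15:79995874-80014977, minus strand) is the ligand that endothelial cells present to pericytes. The wt libraries of pairs 1, 2 and 3 held 27.5, 44.6 and 19.1 CPM of it, and those labelled flt3L-/- held 54.6, 23.7 and 27.6 CPM. The level was higher in the library labelled flt3L-/- in pairs 1 and 3 and lower in pair 2, by 0.99, 0.53 and -0.91 on the log2 scale, and the groups overlapped. The means of 30.4 ± 13.0 CPM and 35.3 ± 16.9 CPM (SD, n = 3 each) differed by less than the spread between libraries (log2 fold change 0.21, standard error 0.41, adjusted p = 0.977 in edgeR). Without pair 1 the estimate turned to -0.19.

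*Pdgfa* (ENSMUSG00000025856, chr5:138976014-138997370, minus strand) encodes a ligand of the alpha receptor. It was measured at 8.36, 5.16 and 6.52 CPM in wt pairs 1, 2 and 3, and at 7.03, 10.3 and 18.5 CPM in their partners labelled flt3L-/-. The pair 3 library labelled flt3L-/- was the highest of all, while in pair 1 the order was the opposite one, and the groups overlapped. The means were 6.68 ± 1.61 CPM and 11.9 ± 5.90 CPM (SD, n = 3 each). The estimated log2 difference was 0.76 (standard error 0.40, 95% interval -0.29 to 1.80, adjusted p = 0.973 in edgeR), with -0.25, 0.98 and 1.49 in the 3 pairs, and it was 1.25 without pair 1 and 0.37 without pair 3. *Pdgfa* shares 26.1% of its exon bases with the antisense gene 6330403L08Rik (9 to 31 counts per library), and the unstranded libraries cannot separate the reads of the 2 genes there.

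*Pdgfc* (ENSMUSG00000028019, chr3:81036416-81214040, plus strand), the other latent ligand, was close to the limit for testing. Its counts were 106, 53 and 40 in wt pairs 1, 2 and 3 and 77, 61 and 42 in their partners labelled flt3L-/-, which equals 1.49 to 4.12 CPM and 1.66 to 2.81 CPM. The wt library of pair 1 was the highest and the wt library of pair 3 the lowest, so that the whole range of the second group lay inside that of wt. With a log2 fold change of -0.028 (standard error 0.36) it did not pass the test (adjusted p = 0.994 in edgeR). The interval of -0.98 to 0.92 includes differences of almost 1 on the log2 scale in either direction, and the estimate was 0.25 without pair 1.

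*Pdgfra* (ENSMUSG00000029231, chr5:75152292-75198215, plus strand) encodes the receptor for the A, B and C chains. In wt, pairs 1, 2 and 3 had 267, 243 and 208 CPM, and their partners labelled flt3L-/- had 192, 236 and 49.8 CPM. The library labelled flt3L-/- was the lower one in each pair, with log2 differences of -0.48, -0.043 and -2.06, and the value of pair 3 stood far below the other 5. Because the pair 2 library labelled flt3L-/- exceeded the wt library of pair 3, the groups overlapped. Mean levels were 239.5 ± 29.8 CPM for wt and 159 ± 97.4 CPM under the flt3L-/- label (SD, n = 3 each). The log2 fold change of -0.84 (standard error 0.43, 95% interval -1.96 to 0.27) did not pass the test (unadjusted p = 0.108, adjusted p = 0.973 in edgeR), and it was -0.26 without pair 3 and -1.29 without pair 2.

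*Pdgfrb* (ENSMUSG00000024620, chr18:61045150-61085061, plus strand) encodes the receptor for the B and D chains. In wt, pairs 1, 2 and 3 had 332, 169 and 173 CPM, and their partners labelled flt3L-/- had 200.4, 197 and 67.0 CPM. The wt library of pair 1 was the highest and the pair 3 library labelled flt3L-/- the lowest, and the remaining 4 lay close together. Within pairs the log2 difference was -0.73, 0.22 and -1.36. The means of 224.5 ± 93.1 CPM and 155 ± 75.9 CPM (SD, n = 3 each) gave a log2 fold change of -0.63 (standard error 0.33, 95% interval -1.48 to 0.22, adjusted p = 0.973 in edgeR), which was -0.26 without pair 3 and -1.07 without pair 2.

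Across the family, 0 of 6 genes were called between the groups by edgeR at an adjusted p under 0.05, by limma-voom or by DESeq2. Over all genes the called share was 0% in edgeR, limma-voom called 0 of the 13475, and DESeq2 called 21 of the 13475. The paper, also with edgeR and the date as a covariate, reported genes that differed at a false discovery rate of 0.05. Its list does not hold any of the 6 PDGF genes. Why the calls over all genes differ from those of the paper was not tested. With the p left unadjusted, edgeR and limma-voom placed 0 of the 6 under 0.05 and DESeq2 placed 1 there, *Pdgfra*, while edgeR did so for 3.59% of all genes, 1.11% higher and 2.49% lower, limma-voom for 3.77% and DESeq2 for 4.76%. The DESeq2 estimate of *Pdgfra* was -0.85, with an adjusted p of 0.960. Without pair 2, 4 of the 6 had an unadjusted p under 0.05 in edgeR, with *Pdgfb* (0.74) and *Pdgfd* (0.58) higher and *Pdgfra* (-1.29) and *Pdgfrb* (-1.07) lower in the libraries labelled flt3L-/-, the share of all genes was 7.47%, and the smallest adjusted p of a member was 0.513. Without pair 1 the count was 1 (*Pdgfa*, 1.25, with 2.57% of all genes), and without pair 3 it was 0 (1.87% of all genes). In the 6 libraries, 0 of the 6 genes had groups that did not overlap, while 6.45% of all genes did. *Pdgfd* was higher in 3 of 3 pairs, as were 14.2% of all genes, and *Pdgfra* was lower in 3 of 3, as were 11.5%. The smallest p of the family, that of *Pdgfd*, ranked 903 among 13475.

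**Figure D3:**
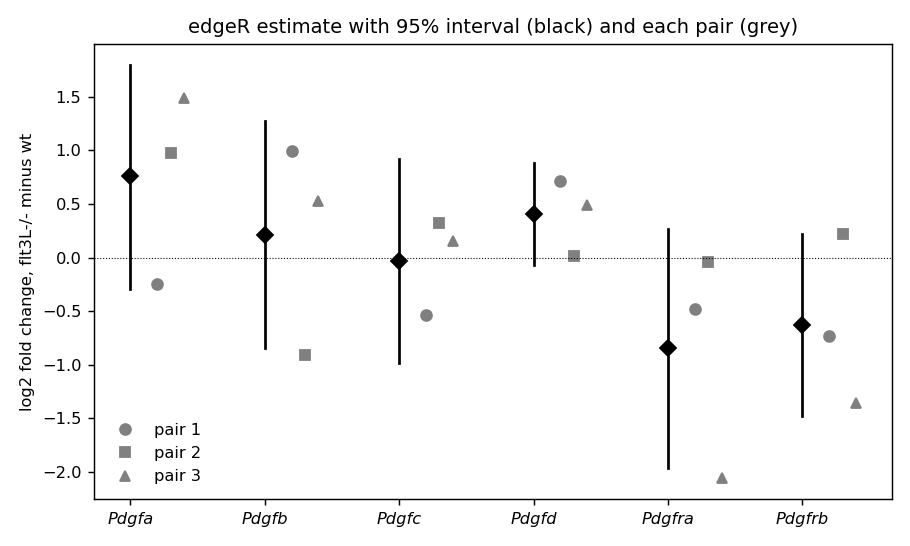
Log2 fold change of each PDGF gene between the groups (positive means higher in the libraries labelled flt3L-/-), with the edgeR estimate and its 95% interval in black and the values of pairs 1, 2 and 3 in grey. All 6 intervals include 0, the narrowest is that of *Pdgfd* (-0.072 to 0.88), and pair 3 lies farthest from 0 for *Pdgfa* (1.49), *Pdgfra* (-2.06) and *Pdgfrb* (-1.36).

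The sorting date was tested in the same model. For 0 of 6 genes was the date term called by edgeR at an adjusted p under 0.05 or found at an unadjusted p under 0.05, by the second of which 8.28% of all genes had one. limma-voom and DESeq2 called 0 of the 6 as well, and their shares over all genes were not computed. The lowest unadjusted p was that of *Pdgfrb* (0.0741, adjusted p = 0.603). Estimates for the third date against the first were -1.22 for *Pdgfrb*, -1.04 for *Pdgfra*, -1.13 for *Pdgfc* and -0.80 for *Pdgfb* on the log2 scale, and 0.49 for *Pdgfa* and 0.38 for *Pdgfd*.

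Ratios of 2 members within a library do not depend on the scaling between libraries. CPM of *Pdgfra* divided by that of *Pdgfrb* was 0.805, 1.44 and 1.20 for wt in pairs 1, 2 and 3 and 0.956, 1.20 and 0.743 for their partners labelled flt3L-/-. The groups overlapped, and the mean log2 difference was -0.24 (SD 0.47 over 3 pairs, p = 0.5 in an exact two-sided sign-flip permutation test, in which 3 pairs cannot give less than 0.25). The *Pdgfb* to *Pdgfrb* ratio, of the vessel ligand to its receptor, differed by 1.72, -1.13 and 1.89 on the log2 scale in the 3 pairs (mean 0.83, p = 0.5 in the same exact test). The *Pdgfa* to *Pdgfra* ratio was 0.0316, 0.0215 and 0.0317 in wt and 0.0371, 0.0438 and 0.373 in the libraries labelled flt3L-/-. It was higher in 3 of 3 pairs, by 0.23, 1.02 and 3.55 on the log2 scale, and the groups did not overlap. Its mean log2 difference of 1.60 (SD 1.74 over 3 pairs) had p = 0.25 in the exact test, the smallest value 3 pairs allow, and was 0.63 without pair 3.

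Of the 15 pairs of members, *Pdgfd* and *Pdgfra* ran opposite to each other over the 6 libraries. On log2 CPM, Pearson's r was -0.839 (p = 0.00139, adjusted p = 0.0208 over the 15, exact permutation test) and Spearman's rho was -1 (p = 0.00278, adjusted p = 0.0417, exact permutation test). The library with the most *Pdgfra* had the least *Pdgfd*, and so on through all 6. Without the 2 libraries farthest from the median of *Pdgfd*, r was -0.959. The levels of the receptors had r = 0.917 (p = 0.0278, adjusted p = 0.208, exact permutation test) and rho = 0.486 (p = 0.356, exact permutation test), but without the wt library of pair 1 and the pair 3 library labelled flt3L-/- r was -0.414, so this relation rested on those libraries. The permutations treat the 6 libraries as exchangeable and leave out the date and group that they share, and each date holds only 2 libraries, too few for a correlation within dates. Within pairs 1, 2 and 3 the log2 differences were 0.71, 0.016 and 0.49 for *Pdgfd* and -0.48, -0.043 and -2.06 for *Pdgfra*, opposite in sign in 3 of 3 pairs, but the largest difference of *Pdgfd* fell in pair 1 and that of *Pdgfra* in pair 3. None of the other 13 relations had an adjusted Pearson p under 0.05.

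Summed levels of cell type markers were set beside the receptors. The summed level of 8 fibroblast markers (*Dcn*, *Lum*, *Col1a1*, *Col1a2*, *Col3a1*, *Tcf21*, *Dpt* and *Mmp2*) was 18412.4, 11370.0 and 7720.9 CPM for wt in pairs 1, 2 and 3 and 7871.6, 11925.3 and 3756.2 CPM for their partners labelled flt3L-/-. The library with the highest sum was also the highest in *Pdgfra* and *Pdgfrb*, and the library with the lowest sum was the lowest in both. All 8 markers had negative estimates between the groups (median log2 fold change -0.65, against -0.000 over all genes), and 3 of the 8, all lower, had an unadjusted p under 0.05, as did 3.59% of all genes (2.49% lower). Relative to the fibroblast sum, *Pdgfra* differed by 0.75, -0.11 and -1.02 and *Pdgfrb* by 0.50, 0.15 and -0.33 on the log2 scale in the 3 pairs. Neither kept 1 direction against this sum, in which *Dcn* weighed most (2412.5 to 10551.3 CPM, log2 difference 0.38 in pair 2). The 3 collagen markers were lower in 3 of 3 pairs, as were 11.5% of all genes, and the other markers were higher in pair 2. Differences relative to single markers were not computed. The summed level of 8 pericyte markers was 209 to 415 CPM for wt and 170.5 to 283 CPM under the flt3L-/- label. Against this sum *Pdgfrb* differed by -0.17, -0.029 and -0.75, lower in 3 of 3 pairs. *Rgs5* weighed most in it (99.95 to 196.6 CPM, log2 differences of -0.36, 0.25 and -0.023 in the 3 pairs). *Abcc9* (26.5 to 154 CPM) differed by -0.91, -0.050 and -1.67, and *Pdgfrb* itself by -0.73, 0.22 and -1.36. The direction against the sum therefore need not hold against each marker. Of the 8, 1, *Abcc9* (-0.88), had an unadjusted p under 0.05 in edgeR, as did 3.59% of all genes (2.49% lower). The sum of 6 smooth muscle markers was 426 to 520 CPM for wt and 406 to 477 CPM under the flt3L-/- label. Its log2 differences were -0.13, -0.047 and -0.099 in the 3 pairs. *Smtn* made up most of this sum (335 to 381 CPM per library, log2 fold change 0.043). The other 4 tested markers had lower estimates, and the median of the list was -0.44. Of the tested markers 1, *Myh11* (-0.76), had an unadjusted p under 0.05 in edgeR, as did 3.59% of all genes (2.49% lower).

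The 12 endothelial markers summed to 8538.5 to 10514.0 CPM for wt and 8599.4 to 11392.2 CPM under the flt3L-/- label. Relative to this sum *Pdgfd* differed by 0.29, 0.31 and 0.40 in pairs 1, 2 and 3, a narrower spread than that of its CPM. *Pdgfb* differed by 0.58, -0.62 and 0.44 and *Pdgfa* by -0.67, 1.28 and 1.42. *Kdr* weighed most in the sum (2729.8 to 3882.7 CPM, log2 fold change -0.17), while 10 of the 12 markers had higher estimates (median 0.14). Differences relative to single markers were not computed. Platelets carry much PDGF, and 3 of their 6 markers were abundant enough to be tested (the 6 summed to 10.7 to 17.2 CPM per library). The 7 lymphocyte and NK cell markers summed to 41.7, 82.5 and 175.8 CPM for wt in pairs 1, 2 and 3 and to 27.9, 81.5 and 25.3 CPM in their partners. Their log2 differences of -0.58, -0.019 and -2.79 were lower in 3 of 3 pairs, as those of *Pdgfra* were, and largest in pair 3. Macrophage and monocyte markers ranged from 33.1 to 1697.5 CPM per library, with log2 differences of 3.19, 0.74 and -4.17, and cardiomyocyte markers from 101 to 144 CPM for wt and from 151 to 184 CPM under the flt3L-/- label. No list had a marker at 0 in every library. The part of these cells in the levels of the PDGF genes was not tested.

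**Figure D4:**
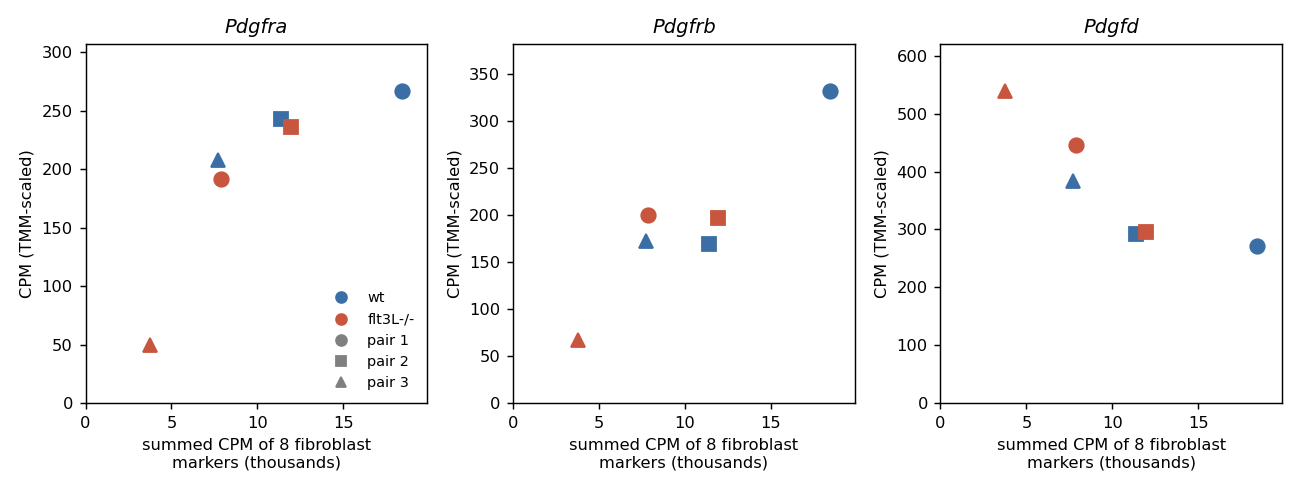
CPM of *Pdgfra*, *Pdgfrb* and *Pdgfd* in each library (linear axes from 0) against the summed CPM of 8 fibroblast markers, colours for the groups and symbols for the pairs. *Pdgfra* and *Pdgfrb* are lowest at the sum of 3756.2 CPM and highest at 18412.4 CPM, and *Pdgfd* is highest and lowest at the same ends in reverse (539 and 272 CPM).

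Genes that act with the PDGF family were described in 6 lists by role, 68 genes in all. In edgeR, 0 of the 67 tested were called, and for 0 of them was the unadjusted p below 0.05, as it was for 3.59% of all genes. By unadjusted p, DESeq2 found 3 (4.76% of all genes) and limma-voom 0 (3.77% of all genes). In edgeR, leaving out pair 2 brought this count to 9 (7.47% of all genes), leaving out pair 1 to 2 (2.57%), and leaving out pair 3 to 0 (1.87%). Estimates were higher for 29 and lower for 38 in the libraries labelled flt3L-/-, with a median of -0.072 (median of all genes -0.000).

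Of the 8 extracellular partners and coreceptors, 3 had higher and 5 had lower estimates (median -0.32). *Sparc*, whose product binds PDGF-B chains, averaged 2031.6 CPM for wt and 2313.3 CPM under the flt3L-/- label (log2 fold change 0.19). *Thbs1*, which encodes thrombospondin 1, had 484.0 to 4502.7 CPM (-0.78), and the coreceptor gene *Nrp1* had 0.050. *Lrp1*, whose product is an endocytic receptor that associates with the beta receptor, had 630, 415 and 319 CPM for wt in pairs 1, 2 and 3 and 388, 444 and 96.7 CPM in their partners. As with *Pdgfra* and *Pdgfrb*, the lowest value was that of pair 3 labelled flt3L-/- (log2 fold change -0.77, unadjusted p = 0.0965 in edgeR).

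Among the 8 genes of ligand processing, 7 were tested, and *Plau*, which encodes urokinase, was not, at 0.156 to 0.349 CPM. Estimates were higher for 5 and lower for 2 (median 0.12). *Plat*, encoding the tissue plasminogen activator that activates PDGF-C, had 442 to 1065.3 CPM (log2 fold change 0.25), and the convertase genes *Pcsk7* and *Pcsk5* had 0.12 and 0.032. *St14*, whose product matriptase cleaves PDGF-D, stayed between 0.752 and 2.68 CPM (log2 fold change -0.90, unadjusted p = 0.0862 in edgeR).

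The 21 genes of adaptors and effectors had estimates between -0.32 and 0.30, 8 higher and 13 lower (median -0.072). The transcription factor gene *Stat3* had 578 to 850.4 CPM (log2 fold change 0.042), the adaptor gene *Crk* 254 to 402 CPM (0.25) and the kinase gene *Fyn* 185 to 412 CPM (0.24). The smallest p-values belonged to the docking protein gene *Gab1* (-0.32, unadjusted p = 0.0838 in edgeR) and to *Pik3r1*, the regulatory subunit of PI3K (-0.28, unadjusted p = 0.0873). Of the 11 phosphatases, ubiquitin ligases and other brakes, 5 had higher and 6 lower estimates (median -0.011). The phosphatase gene *Ptpn1* had 0.046 and the inhibitor gene *Spry4* -0.11, and the smallest p-values were those of *Spry2* (-0.59, unadjusted p = 0.112 in edgeR) and *Cblb* (-0.32).

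Of 13 genes that cultured fibroblasts induce early after PDGF, 4 had higher and 9 lower estimates (median -0.21). *Egr1* (5160.4 to 7907.6 CPM), *Fos* (3256.8 to 4147.9 CPM) and *Junb* (2834.0 to 3532.9 CPM) had log2 fold changes of -0.017, 0.020 and 0.14. *Ptgs2*, which encodes cyclooxygenase-2, had the smallest p (0.0567 in edgeR, log2 fold change -0.67), followed by the chemokine gene *Ccl7* (-0.44). The date term of the model had an unadjusted p under 0.05 for 7 of the 13, where 8.28% of all genes had one. Its adjusted p was under 0.05 for 0 of the 13 and for 0% of all genes.

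**Figure D5:**
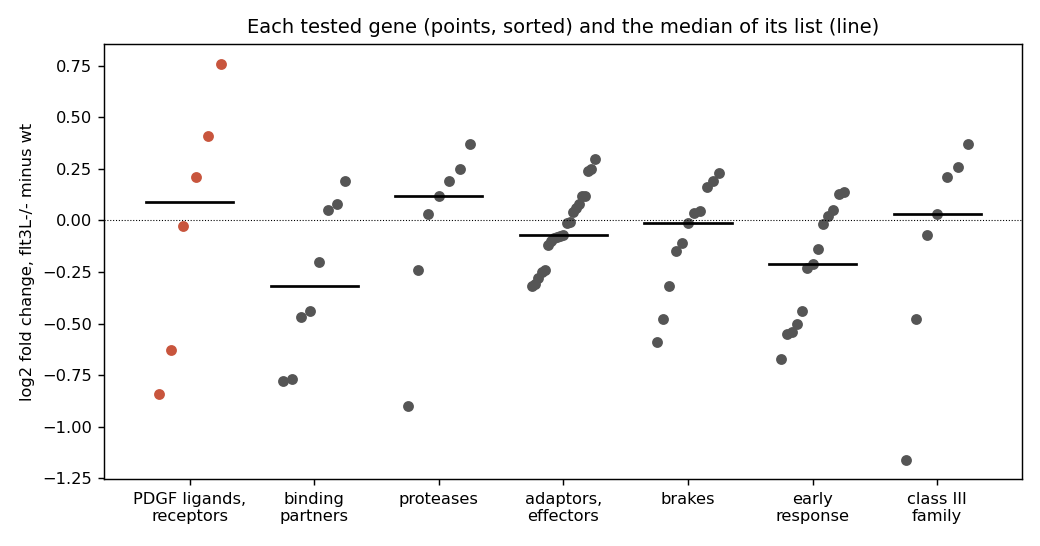
Log2 fold change of each tested gene (points, sorted within a list) and the median of its list (black line) for the PDGF genes and the 6 lists by role. The medians lie between -0.32 for the binding partners and 0.12 for the proteases, and the PDGF genes reach from -0.84 to 0.76 around a median of 0.093.

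The PDGF receptors belong to the class III receptor tyrosine kinases with *Kit*, *Csf1r* and *Flt3*. *Pdgfra* lies 377 kb from *Kit* on chromosome 5, and *Pdgfrb* lies 15.5 kb from *Csf1r* on chromosome 18. *Kit* had 21.2 to 33.9 CPM and *Csf1r* 10.1 to 80.3 CPM, and per kilobase of exon their means of 3.20 and 6.44 were below those of both PDGF receptors. *Flt3*, the receptor gene of the ligand encoded by *Flt3l*, had 0 to 4.28 CPM. Of the 7 other genes of this class and its ligands, 4 had higher and 3 lower estimates (median 0.029), with *Flt3l* at 0.37 (unadjusted p = 0.124 in edgeR), *Kitl* at 0.029, *Csf1* at 0.21 and *Csf1r* at -0.48.

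For each member, the tested genes with the most similar log2 CPM over the 6 libraries were looked up. The 3 highest values of Pearson's r were 0.979 or more for each member, which is a description, since they were selected from 13475 genes on 6 points that share date and group. *Pdgfd* was closest to *Ears2* (0.999), *Pkn3* (0.998) and *Sh3bp4* (0.992), and *Pdgfb* to *Jak2* (0.993), *Exoc8* (0.980) and *Tbkbp1* (0.979). *Pdgfa* was closest to *Brix1* (0.993), *Npm1* (0.991) and *Zfp472* (0.990). *Pdgfc* was closest to *Cspg4* (0.991), which also stands on the list of pericyte markers, *Prmt1* (0.983) and 9130008F23Rik (0.982). *Pdgfra* was closest to *Fam49a* (0.996), *Cpz* (0.996) and *Scn7a* (0.994), and *Pdgfrb* to *Mfsd12* (0.997), *Pcdh9* (0.996) and *Ptk7* (0.994). No gene was among the 3 closest of more than 1 member.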

How the data were processed

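RNA-seq of 6 mouse libraries was analysed, 3 per group. The deposited values are raw counts of reads per gene, without normalization. The authors mapped unstranded single reads of 81 bases to mm10 with STAR 2.5.2a (at most 10 hits, ties placed at random) and counted reads that start in an exon of Ensembl release 88 with QuasR. FastQC 0.11.3 also appears in the submitters' processing notes. Depth was 24370913 to 31145519 counts per library, which makes a count of 3 equal to 0.109 to 0.127 CPM.

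Symbols, positions and union exon lengths came from a GENCODE annotation of GRCm38. It lacked 224 of the 50600 genes, which were not tested. The 13475 protein-coding genes that exceeded 1 CPM in 2 or more libraries were fitted in edgeR 4.0.16 (R 4.3.3) with TMM factors, glmQLFit and glmQLFTest (legacy = TRUE), genotype and sorting date as terms and Benjamini-Hochberg adjustment over all genes. Calls needed an adjusted p under 0.05. Standard errors and 95% intervals were derived from the F statistic. A prior count of 2 was used for log2 values of genes within pairs, for ratios and for the search of similar genes. Correlations between members, marker sums and differences relative to those sums used log2 CPM without a prior count. The code was tested on simulated data with larger changes and less spread within dates than these data have. That test does not show whether changes of the size estimated here could be found.

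The pairing comes from the sorting date in the labels and from the methods of the study, which describe paired sorts. After removal of the group means, libraries of the same date correlated at 0.180, 0.104 and 0.116 across genes, and libraries of different dates at -0.354 to 0.247. Each library is 1 pooled sort, so p-values measure the spread between pooled sorts.

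Alternatives were DESeq2 1.42.0, limma-voom (limma 3.58.1), 3 other normalizations, 3 other gene selections, legacy = FALSE, no replicate block and each pair left out. The PDGF genes and all gene and marker lists were chosen with earlier results of these data known. Named pathway genes are, per list, the 3 with the highest mean CPM and the 2 with the smallest genotype p, and the 3 most correlated genes per member. Some genes under this rule are not reported here. *Plau*, *Kit* and *Flt3* were added after their values were seen. Promoter windows are from RefSeq (GRCm38.p6).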

Additional observations from a re-analysis of the deposited data

How the results depend on the processing

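Of the 180 values recomputed under alternatives, 170 were scored as the same, 8 as moved and 2 as reversed. For fold changes, the same meant an unchanged sign and side of the threshold. For counts of genes it meant an equal number, and for ratios an unchanged sign. Ratios with a pair left out also had to shift by less than the SD over pairs. Mean levels had to shift by less than their SD over libraries, and the order of the genes had to stay. Adjusted p-values of the 6 PDGF genes were 0.513 or more under every alternative run. With all 6 libraries, the 10 other settings gave log2 fold changes of 0.72 to 0.84 for *Pdgfa*, 0.17 to 0.22 for *Pdgfb*, -0.12 to -0.022 for *Pdgfc*, 0.37 to 0.43 for *Pdgfd*, -0.88 to -0.59 for *Pdgfra* and -0.67 to -0.54 for *Pdgfrb*. DESeq2 gave 21 called genes in place of 0 (6 higher, 15 lower), 1 PDGF gene in place of 0 with an unadjusted p under 0.05 (*Pdgfra*) and 3 pathway genes in place of 0. Without a filter on low counts, 1 pathway gene had an unadjusted p under 0.05. The causes were not tested.

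When 1 pair was left out, between 0 and 4 PDGF genes and between 0 and 9 pathway genes had an unadjusted p under 0.05, with the highest counts without pair 2, where 7.47% of all genes did. Estimates then lay between 0.37 and 1.25 for *Pdgfa*, 0.25 and 0.58 for *Pdgfd*, -1.29 and -0.26 for *Pdgfra* and -1.07 and -0.26 for *Pdgfrb*. The estimates of *Pdgfb* (-0.19 to 0.74) and *Pdgfc* (-0.23 to 0.25) turned to -0.19 and 0.25 without pair 1. Without the replicate block for the sorting date, 0 PDGF genes and 0 of all genes were called, 262 of all genes had an unadjusted p under 0.05 in place of 484, the estimate of *Pdgfra* was -0.59, and the ratio of *Pdgfa* to *Pdgfra* had p = 0.1 in an exact permutation test, the smallest that 3 against 3 libraries allow. Removing the block changed no other call. Depth limits *Pdgfc* most, with 40 to 106 counts per library.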
